A study of Mus musculus with 6 samples.

Results

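The extracellular proteases examined here are the 22 matrix metalloproteinases (Mmps), the 19 Adamts proteases, the 5 Adamts-like proteins and the 4 tissue inhibitors of metalloproteinases (Timps) of the mouse, in hearts with and without the melanocortin-4 receptor. They were taken as all protein-coding genes of the deposited table whose symbol begins with Mmp or Timp and a digit or with Adamts, which gave 50 genes out of 22046 protein-coding genes and 54532 genes in all. Mmp1a carries such a symbol but is listed as a polymorphic pseudogene, so it was left out, and it had 0 reads. Polyadenylated RNA from the hearts of 3 homozygous Mc4r KO mice and 3 WT littermates was sequenced, with 1 library per mouse. All 6 mice were 12 weeks old, were kept on a C57B/6/N background, came from crosses of heterozygous parents and ate standard chow, and the mice were male by the study's account of its cardiac measurements. The labels name the tissue as heart, with muscle in the titles, and the study's discussion names left ventricle. No allele, Cre line or promoter is given for the knockout. With 3 mice per group, p-values describe the spread between these 6 hearts.

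Mmps are zinc-dependent enzymes that cut collagens, elastin, laminin and other proteins outside the cell. Most are made as inactive proenzymes, which furin-like convertases, plasmin or other Mmps open, and the Timps then block the active site. Adamts proteases carry thrombospondin repeats that place them in the matrix, where they trim procollagens or cut proteoglycans such as versican, whereas the Adamts-like proteins have the same accessory modules without a protease domain. In the heart the balance of these enzymes and inhibitors shapes the collagen network that surrounds the cardiomyocytes, and fibroblasts are a main source of many of them.

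Expression is given as FPKM, the fragments per kilobase of gene length scaled to the library. Between 14691076 and 16047003 reads were counted on genes per library. The deposited FPKM divide by other totals, from 14100300 in WT replicate 1 to 17030600 in WT replicate 3, so they were already scaled between libraries. On that scale, 3 reads on a gene of 1 kb equalled an FPKM between 0.176 and 0.213. Mitochondrial transcripts took 59.3%, 57.4% and 47.1% of the summed FPKM in WT replicates 1 to 3 and 43.6%, 46.6% and 43.0% in Mc4r KO replicates 1 to 3, so by this share WT replicates 1 and 2 lay apart from the other 4 libraries. Mc4r had 2 reads in WT replicate 3 and 0 in the other 5 libraries, too few to check the genotype. In markers of other cell types WT replicate 3 stood apart from the other 5 libraries. Its 4 atrial markers (Nppa, Myl7, Myl4 and Sln) summed to 747 FPKM, against 6.29 to 136 elsewhere, its 5 mesothelial markers to 26.7 FPKM, against 4.92 to 7.76, and its 7 neutrophil markers to 13.1 FPKM, against 1.16 to 5.68. Values without this library are therefore given for the genes with an unadjusted p under 0.05, and for the others only in part. Cardiomyocyte markers were high in every library, from 5616 to 6499 FPKM in sum.

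Promoters are shown for Mmp3 and Timp1, which the study chose as hub genes of its protein network, for Mmp13 and Mmp10, which lie in the same cluster of chromosome 9 as Mmp3 and were expressed at other levels, and for Timp4 and Adamtsl2, which were called under one alternative test. RefSeq start sites on GRCm38.p6 were available for 35 of the 50 genes. Each sequence below is the 150 bases just upstream of the start site, 5′ to 3′ on the strand of the gene. Capitals mark 3 motifs, the AP-1 site TGANTCA (both strands), the TATA box TATAAA (strand of the gene) and the GC box GGGCGG (both strands).
Mmp3: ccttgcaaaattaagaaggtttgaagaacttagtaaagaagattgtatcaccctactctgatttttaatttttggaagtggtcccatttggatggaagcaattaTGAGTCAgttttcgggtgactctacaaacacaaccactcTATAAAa
Mmp13: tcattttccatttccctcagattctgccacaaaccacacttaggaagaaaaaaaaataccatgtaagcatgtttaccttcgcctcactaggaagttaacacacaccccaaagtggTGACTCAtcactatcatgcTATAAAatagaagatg
Mmp10: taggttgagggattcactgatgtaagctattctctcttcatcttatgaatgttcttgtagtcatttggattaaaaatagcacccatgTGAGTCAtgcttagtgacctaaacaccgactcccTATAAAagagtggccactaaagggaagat
Timp1: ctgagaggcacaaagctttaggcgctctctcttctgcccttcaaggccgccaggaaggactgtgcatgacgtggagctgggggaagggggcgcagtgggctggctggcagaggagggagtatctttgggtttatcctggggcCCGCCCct
Timp4: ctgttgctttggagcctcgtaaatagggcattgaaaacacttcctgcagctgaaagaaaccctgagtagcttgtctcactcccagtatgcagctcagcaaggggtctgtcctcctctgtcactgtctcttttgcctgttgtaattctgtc
Adamtsl2: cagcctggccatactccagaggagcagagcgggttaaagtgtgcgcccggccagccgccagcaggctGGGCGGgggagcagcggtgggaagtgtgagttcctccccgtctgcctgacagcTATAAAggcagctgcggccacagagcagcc
The stretches are chr9:7445672-7445821 (plus strand) for Mmp3, chr9:7272364-7272513 (plus) for Mmp13, chr9:7502192-7502341 (plus) for Mmp10, chrX:20870016-20870165 (plus) for Timp1, chr6:115252206-115252355 (minus) for Timp4 and chr2:27079229-27079378 (plus) for Adamtsl2.

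Motifs were counted in the 250 bases upstream. An AP-1 site was found in 6 of the 35 genes, namely Mmp3, Mmp13, Mmp1b, Mmp10, Mmp20 and Mmp7, beside 6.75% of all 32851 promoters in the RefSeq table. These 6 genes all lie in the Mmp cluster of chromosome 9, and each also held a TATA box. A TATA box was present in 9 of 35 genes (7.59% of all promoters), and the other 3 were Adamts1, Adamtsl2 and Mmp21. A GC box was present in 20 of 35 (32.7% of all promoters), among them Timp1, Timp2, Timp3 and Adamtsl2. The STAT motif TTCNNNGAA (both strands) was found in 0 of 35, beside 7.02% of all promoters. Timp4 held none of the 4 motifs in this window. A match of letters is a description and does not show that a factor binds there, and no promoter was given for the other 15 genes, Adamts4, Adamts5, Adamts6, Adamts7, Adamts8, Adamts10, Adamts15, Adamts16, Adamts19, Adamtsl1, Mmp2, Mmp9, Mmp16, Mmp17 and Mmp19.

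Levels of the 50 genes spanned from 0 reads to a mean of 38.1 FPKM over the 6 libraries. A mean of at least 10 FPKM was reached by 8 genes, Timp2 (38.1), Timp3 (33.0), Mmp2 (20.9), Mmp15 (18.7), Adamtsl5 (17.9), Timp4 (13.2), Adamts1 (12.8) and Adamtsl4 (10.7), and a mean of at least 1 FPKM by 21. The order rests on means over both groups. Among the 8 genes of at least 10 FPKM, only 1 pair of neighbours had ranges over the 6 libraries that did not overlap. This pair was Timp3 (29.5 to 37.4) and Mmp2 (16.2 to 24.8). The 4 Timps together made up 39.8% to 42.7% of the summed FPKM of all 50 genes in each library. The sum over all 50 genes was 208 ± 10.01 FPKM in WT and 210 ± 9.85 in Mc4r KO mice (mean ± SD, n = 3 each, exact permutation p = 0.7).

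Genes were tested where their FPKM averaged 0.1 or more, which kept 37 of the 50. Just inside was Mmp27 (0.103) and just outside Mmp12 (0.0911). Of the 13 below it, 5 had 0 reads in every library, which were Adamts13, Mmp1b, Mmp7, Mmp10 and Mmp20. For these a count of 0 allows up to 3 reads, which is an FPKM of up to 0.0432 for Adamts13, 0.147 for Mmp1b, 0.199 for Mmp7, 0.124 for Mmp10 and 0.0647 for Mmp20, for counting error only. The other 8 were Mmp8, Mmp12, Mmp21, Mmp24, Mmp25, Adamts16, Adamts18 and Adamts20. In all, 12 genes stayed under 10 reads in every library, which are the 5 with no read, Mmp8, Mmp21, Mmp24, Mmp27, Adamts16, Adamts18 and Adamts20.

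**Figure D1:**
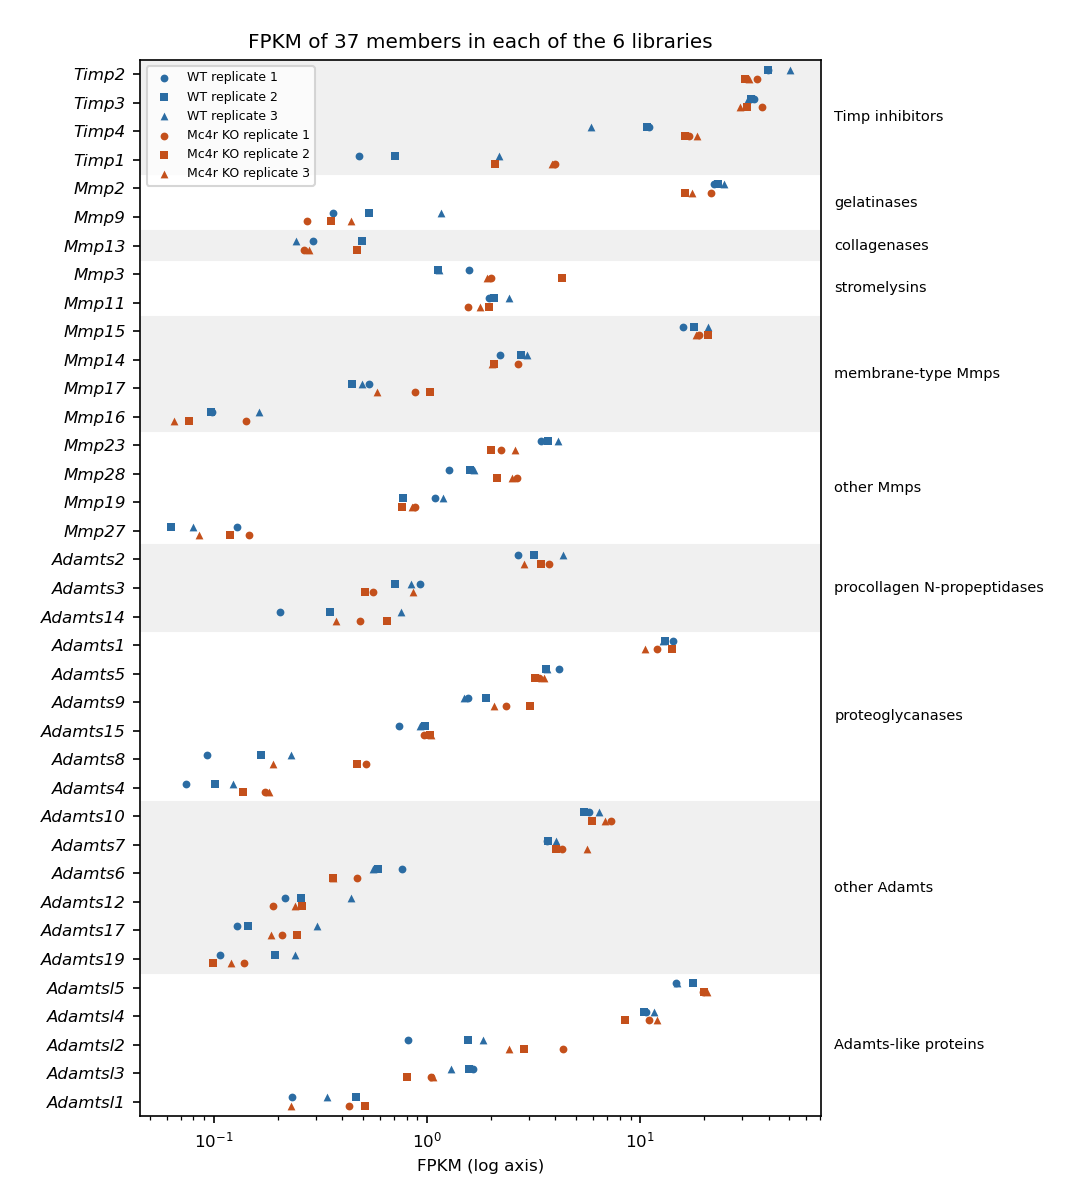
FPKM (log axis) of the 37 genes above the filter in each of the 6 libraries, grouped by role, with WT in blue and Mc4r KO in orange and 1 symbol per replicate. The groups lie apart for 15 of the 37 genes, 9 higher in Mc4r KO (24.3%, beside 14.1% of all genes tested) and 6 lower (16.2%, beside 12.4%). Timp4 and Adamtsl2 are among them, while Timp1 of WT replicate 3 (2.18) lies above that of Mc4r KO replicate 2 (2.08).

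The comparison of Mc4r KO with WT asks which genes differ in the heart at an age when the study found no difference in its measures of cardiac function. At this age it reported heavier Mc4r KO mice, larger cardiomyocytes and no significant collagen deposition by Masson staining. Genotype and body weight thus cannot be told apart in these libraries. None of the 37 tested genes passed the test of limma on log2(FPKM + 0.1), which asked for a Benjamini-Hochberg adjusted p under 0.05 over all 18035 genes tested and a log2 fold change beyond 0.75 in either direction. The count was 0 higher, beside 0.316% of all genes tested, and 0 lower, beside 0.144%. The lowest adjusted p was 0.0719, for Mmp23. The study used another test, DESeq2 on counts, and Timp1 and Mmp3 were among its differentially expressed genes, from which it drew its hub genes. Its RT-qPCR also had Timp1 higher in Mc4r KO hearts. At an unadjusted p under 0.05 there were 13 genes, 8 higher in Mc4r KO mice (21.6% of 37, beside 12.0% of all genes) and 5 lower (13.5%, beside 8.83%). Their adjusted p lay between 0.0719 and 0.225. Such shares depend on the level of expression. In both directions together the share was 20.9% of all genes tested and 35.1% here. Among genes with a mean of at least 1 FPKM it was 27.8% of all genes and 52.4% here (11 of 21). The genes were not matched on level, so its part in the gap was not tested. Every Mc4r KO library lay above every WT library in 9 genes (24.3%, beside 14.1% of all genes) and below in 6 (16.2%, beside 12.4%). An exact permutation test of 3 against 3 cannot give a two-sided p below 0.1, which each of these 15 genes has.

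Over the family, about as many genes lay above as below WT. Of the 37, 18 were higher and 19 lower, or 48.6% higher, beside 48.8% of all genes tested, and the median log2 fold change was -0.0043 beside -0.011. The median absolute log2 fold change was 0.27 here and 0.26 over all genes. Fold changes on this scale understate those of weakly expressed genes. Limma voom on the reads recovered from the FPKM called Timp4 and Adamtsl2 as higher, 2 of 37, where it called 1.07% of all genes higher. Without WT replicate 3, limma called Timp1 alone, 1 of 37 and also higher, beside 2.45% of all genes called higher in that fit. The WT libraries left in that fit are those with the highest mitochondrial share, and the part of that share in its calls was not tested.

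**Figure D2:**
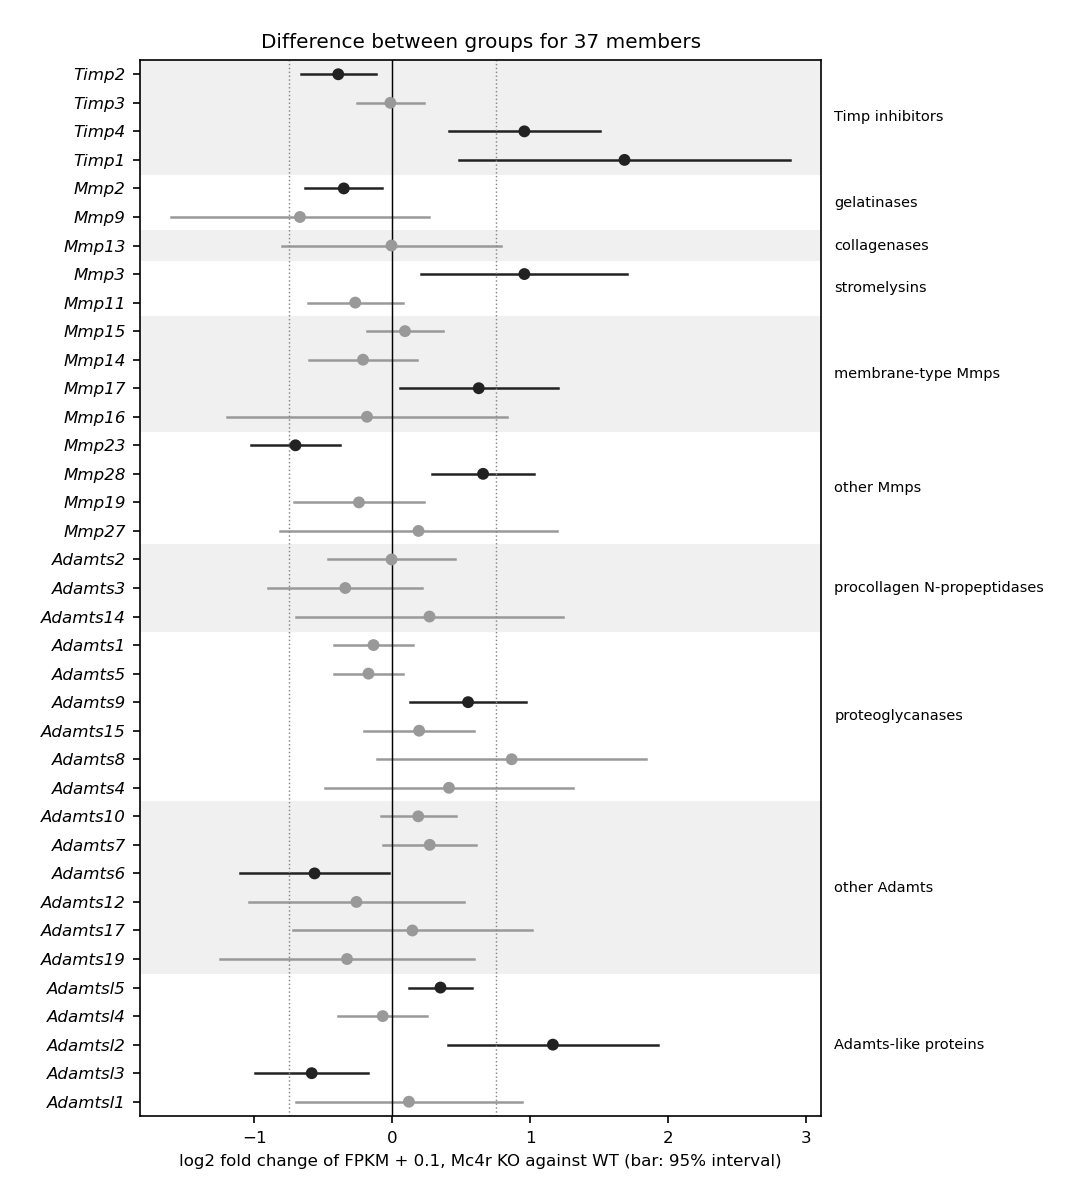
Log2 fold change of FPKM + 0.1 in Mc4r KO against WT for the 37 genes, with 95% intervals from limma, black where the unadjusted p was under 0.05 and grey otherwise, and dotted lines at -0.75 and 0.75. Only Timp1, Adamtsl2, Mmp3, Timp4 and Adamts8 lie beyond a dotted line, all to the right, and the interval of Adamts8 (-0.11 to 1.84) includes 0.

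Among the inhibitors, Timp1 and Timp4 were higher and Timp2 lower at an unadjusted p under 0.05, and none passed the test. Timp4, an inhibitor that is abundant in heart muscle (chromosome 6, 115241892 to 115252205, inside the gene Syn2 on the opposite strand), had 10.96, 10.7 and 5.86 FPKM in WT replicates 1 to 3 and 17.0, 16.3 and 18.5 FPKM in Mc4r KO replicates 1 to 3. The groups did not overlap, and WT replicate 3 was the lowest library. The log2 fold change was 0.96 ± 0.23 (SE), with a 95% interval of 0.41 to 1.51 and an adjusted p of 0.0996 from limma. Without WT replicate 3 it was 0.67 with an adjusted p of 0.01999, below the fold change asked for, and in voom it was 0.97 with an adjusted p of 0.0252, past both thresholds. Exons of Syn2 cover 1.53% of the exonic bases of Timp4.

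Timp1, the inducible inhibitor, lies on chromosome X from 20870166 to 20874735 inside the gene Syn1 on the opposite strand, without shared exons. It had 0.479, 0.706 and 2.18 FPKM in WT and 3.99, 2.08 and 3.86 FPKM in Mc4r KO hearts, which rest on 6, 9 and 33 reads and on 55, 28 and 55 reads. WT replicate 3 was above Mc4r KO replicate 2, so the groups overlapped. The log2 fold change was 1.68 ± 0.51 (SE; interval 0.48 to 2.88; adjusted p = 0.135, limma). Without WT replicate 3 it was 2.26 with an adjusted p of 0.0299, while without any one of the other 5 libraries the adjusted p lay between 0.311 and 0.375.

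Timp2, which blocks Mmps and with Mmp14 also takes part in the activation of pro-Mmp2, had the highest mean of the 50 genes over all 6 libraries and over WT (chromosome 11, 118301069 to 118355740), while in Mc4r KO hearts its mean of 32.87 FPKM was level with the 32.90 of Timp3. Its FPKM was 39.7, 39.9 and 50.3 in WT and 35.4, 30.9 and 32.3 in Mc4r KO hearts. All 3 Mc4r KO libraries were below the WT libraries, of which replicate 3 was the highest. The log2 fold change was -0.39 ± 0.12 (interval -0.66 to -0.12; adjusted p = 0.133, limma), and -0.28 without WT replicate 3.

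Timp3, the inhibitor that stays bound to the matrix and also acts on Adamts proteases (chromosome 10, 86300372 to 86349506, inside Syn3), had 34.1, 33.0 and 32.0 FPKM in WT and 37.4, 31.8 and 29.5 FPKM in Mc4r KO hearts. The groups overlapped, and the log2 fold change of -0.01 had an interval of -0.26 to 0.23 (adjusted p = 0.961, limma). It shares 21.3% of its exonic bases with Syn3 on the opposite strand, and whether the counting used strand is not given in the sources used here.

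The sum of the 4 Timps was close in both groups, 86.7 ± 3.26 FPKM in WT and 86.4 ± 6.64 in Mc4r KO hearts (exact permutation p = 0.9), while 3 of its 4 shares did not overlap between the groups. Timp4 made up 12.9%, 12.7% and 6.48% of the sum in WT and 18.1%, 20.1% and 22.01% in Mc4r KO libraries. The share of Timp2 was 46.6%, 47.3% and 55.7% in WT and 37.7%, 38.2% and 38.4% in Mc4r KO libraries. Timp1 took 0.562%, 0.837% and 2.41% against 4.26%, 2.56% and 4.58%. The exact permutation p was 0.1 for each of these 3 shares, the smallest possible with 3 against 3, so none could pass a threshold of 0.05. The 4 shares are parts of the same sum, so a rise in some lowers the others and they are not separate results. The share of Timp3 ranged from 35.03% to 40.01% over the 6 libraries (exact permutation p = 0.8). The ratio of Timp2 to Timp4 was 3.63, 3.73 and 8.59 in WT and 2.08, 1.90 and 1.74 in Mc4r KO libraries. Such ratios within a library do not depend on how libraries are scaled. In bulk tissue, fewer cells of a type and less RNA per cell cannot be told apart.

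**Figure D3:**
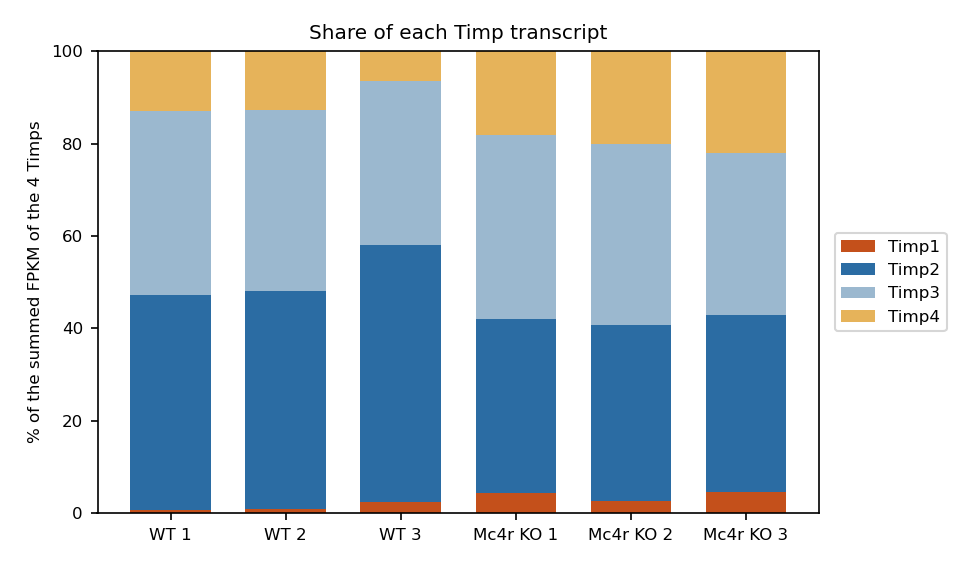
Share of each Timp in the summed FPKM of the 4 Timps (bars sum to 100%) for the 6 libraries. Timp4 takes 6.48% to 12.9% in WT and 18.1% to 22.01% in Mc4r KO libraries, and Timp2 46.6% to 55.7% and 37.7% to 38.4%.

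Of the gelatinases, which cut denatured collagen and basement membrane, Mmp2 (chromosome 8, 92827291 to 92853420) had the highest mean of the Mmps over all 6 libraries, with 22.1, 23.1 and 24.8 FPKM in WT and 21.4, 16.2 and 17.5 FPKM in Mc4r KO hearts. Mc4r KO replicate 1 came close to the WT libraries, but the groups did not overlap. The log2 fold change was -0.35 ± 0.12 (interval -0.63 to -0.07; adjusted p = 0.165, limma). Mmp9, which neutrophils and macrophages store or make, had 0.361, 0.531 and 1.16 FPKM in WT and 0.273, 0.353 and 0.440 FPKM in Mc4r KO hearts. WT replicate 3, the library with the most neutrophil marker RNA, was the highest, and the log2 fold change of -0.67 ± 0.40 (adjusted p = 0.386, limma) was -0.26 without it. The part of neutrophil RNA in this value was not tested.

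The collagenases, which cut the triple helix of fibrillar collagen, had few reads. Mmp13 had 0.292, 0.495 and 0.242 FPKM in WT and 0.265, 0.468 and 0.280 FPKM in Mc4r KO hearts, from 11 to 19 reads per library, with a log2 fold change of -0.01 (interval -0.80 to 0.79), whose sign turned under several alternatives. Mmp8, the neutrophil collagenase, had 1, 2 and 7 reads in WT and 0, 1 and 2 reads in Mc4r KO libraries and was not tested. Mmp1b had no read.

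Among the stromelysins, Mmp3 cuts proteoglycans and fibronectin and opens other pro-Mmps (chromosome 9, 7445822 to 7455975). It had 1.58, 1.12 and 1.14 FPKM in WT and 2.003, 4.31 and 1.90 FPKM in Mc4r KO hearts, from 29 to 40 and 55 to 118 reads. The groups did not overlap, and Mc4r KO replicate 2 was more than the other Mc4r KO libraries together. The log2 fold change was 0.96 ± 0.32 (interval 0.21 to 1.70; adjusted p = 0.159, limma), and over the fits without 1 library it ranged from 0.59 to 1.16 with adjusted p from 0.231 to 0.364. Mmp3 shares 8.39% of its words of 50 bases with Mmp10 and a predicted gene, so some of its reads could be lost to these, although Mmp10 was listed at 0 reads. Mmp11, a stromelysin that furin activates inside the cell, had 1.94, 2.06 and 2.41 FPKM in WT and 1.55, 1.94 and 1.77 FPKM in Mc4r KO hearts. The groups overlapped slightly (log2 fold change -0.27 ± 0.15, adjusted p = 0.346, limma).

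The membrane-type Mmps act at the cell surface. Mmp15 came after Mmp2 in the mean over all 6 libraries but was above it in the Mc4r KO mean (19.28 against 18.38 FPKM), with 15.9, 17.8 and 20.8 FPKM in WT and 18.8, 20.8 and 18.3 FPKM in Mc4r KO hearts. Its log2 fold change of 0.09 had an interval of -0.18 to 0.37 and changed sign with quantile normalization and with scaling outside the mitochondrial chromosome. Mmp14, which activates pro-Mmp2, had 2.19, 2.75 and 2.93 FPKM in WT and 2.67, 2.07 and 2.02 FPKM in Mc4r KO hearts (log2 fold change -0.21 ± 0.17, adjusted p = 0.519, limma). Mmp17, which is held in the membrane by a lipid anchor, had 0.536, 0.442 and 0.497 FPKM in WT and 0.876, 1.03 and 0.584 FPKM in Mc4r KO hearts. Each Mc4r KO library was above the WT libraries, with a log2 fold change of 0.63 ± 0.24 (interval 0.05 to 1.2; adjusted p = 0.210, limma). Of its Mc4r KO values, the lowest was in replicate 3, which was also the Mc4r KO library with the lowest sum of the 4 smooth muscle markers, 39.0 FPKM against 98.0 and 112 in replicates 1 and 2 and 42.5, 54.5 and 73.2 in WT. The part of smooth muscle RNA in Mmp17 was not tested.

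In the remaining Mmps, Mmp23 and Mmp28 had the lowest adjusted p of the 50 genes. Mmp23, an Mmp with an N-terminal membrane anchor (chromosome 4, 155650655 to 155653384), had 3.43, 3.69 and 4.12 FPKM in WT and 2.23, 1.997 and 2.58 FPKM in Mc4r KO hearts, from 113 to 164 and 71 to 97 reads. Its log2 fold change was -0.70 ± 0.14 (interval -1.02 to -0.38; adjusted p = 0.0719, limma). The adjusted p ranged from 0.0393 to 0.259 over 16 alternative fits. Mmp28, called epilysin (chromosome 11, 83440768 to 83463071), had 1.26, 1.58 and 1.67 FPKM in WT and 2.64, 2.12 and 2.51 FPKM in Mc4r KO hearts. The log2 fold change of 0.66 ± 0.16 (interval 0.29 to 1.03) had an adjusted p of 0.0982 from limma, and the groups of both genes did not overlap. Exons of a gene on the opposite strand cover 12.0% of Mmp28, so part of its reads may belong to that gene.

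The procollagen N-propeptidases trim the ends of fibrillar procollagens. Adamts2 had 2.67, 3.17 and 4.36 FPKM in WT and 3.75, 3.41 and 2.86 FPKM in Mc4r KO hearts, with a log2 fold change of -0.0043 (interval -0.47 to 0.46) whose sign turned under some alternatives. Adamts3 had 0.927, 0.705 and 0.844 FPKM in WT and 0.558, 0.509 and 0.861 FPKM in Mc4r KO hearts (log2 fold change -0.34 ± 0.24, adjusted p = 0.464, limma). Both overlapped between the groups.

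Of the proteoglycanases, which cut versican and related proteoglycans, Adamts1 was the most abundant, with 14.2, 13 and 12.8 FPKM in WT and 12.0, 14.1 and 10.5 FPKM in Mc4r KO hearts (log2 fold change -0.14 ± 0.12, adjusted p = 0.565, limma). Adamts5, its neighbour on chromosome 16 at a distance of 53.1 kb, had 4.13, 3.62 and 3.66 FPKM in WT and 3.35, 3.20 and 3.54 FPKM in Mc4r KO hearts. The Mc4r KO libraries lay below the WT libraries by a small margin (log2 fold change -0.17 ± 0.11, adjusted p = 0.411, limma). Adamts9 had 1.56, 1.90 and 1.48 FPKM in WT and 2.34, 3.02 and 2.06 FPKM in Mc4r KO hearts, without overlap. Its log2 fold change was 0.55 ± 0.18 (interval 0.13 to 0.97; adjusted p = 0.152, limma), and 12.0% of its exonic bases are shared with genes on the opposite strand. Adamts1 and Adamts9 are thus of the same role with values on opposite sides of 0, and the difference between the 2 genes was not tested.

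Among the other Adamts proteases, Adamts10, which binds fibrillin, had 5.75, 5.41 and 6.41 FPKM in WT and 7.28, 5.96 and 6.85 FPKM in Mc4r KO hearts, overlapping (log2 fold change 0.19 ± 0.12, adjusted p = 0.399, limma), and its sign turned with scaling outside the mitochondrial chromosome. Adamts7, which cuts cartilage oligomeric matrix protein, had 3.64, 3.70 and 4.001 FPKM in WT and 4.28, 4.01 and 5.60 FPKM in Mc4r KO hearts (log2 fold change 0.27 ± 0.14, adjusted p = 0.330, limma). The groups lay apart by a narrow margin, with 4.001 FPKM in WT replicate 3 and 4.013 FPKM in Mc4r KO replicate 2. Adamts6, a close relative of Adamts10, had 0.764, 0.589 and 0.557 FPKM in WT and 0.471, 0.363 and 0.360 FPKM in Mc4r KO hearts. It was lower without overlap, with a log2 fold change of -0.56 ± 0.23 (interval -1.10 to -0.02; adjusted p = 0.225, limma).

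The Adamts-like proteins bind microfibrils and other matrix parts but cut nothing. Adamtsl2, which binds fibrillin and a latent TGF-beta binding protein (chromosome 2, 27079379 to 27108981), had 0.816, 1.56 and 1.84 FPKM in WT and 4.36, 2.83 and 2.43 FPKM in Mc4r KO hearts, from 92 to 250 and 312 to 541 reads. The groups did not overlap, and both varied among themselves. Its log2 fold change was 1.16 ± 0.32 (interval 0.40 to 1.93; adjusted p = 0.121, limma) and 1.201 with an adjusted p of 0.0404 in voom. Adamtsl3 had 1.64, 1.56 and 1.30 FPKM in WT and 1.04, 0.808 and 1.06 FPKM in Mc4r KO hearts, lower without overlap (log2 fold change -0.58 ± 0.17, interval -0.99 to -0.17, adjusted p = 0.133, limma).

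Adamtsl5 was the most abundant Adamts-like gene, with 14.7, 17.7 and 14.9 FPKM in WT and 19.8, 19.8 and 20.53 FPKM in Mc4r KO hearts. The 3 Mc4r KO values were tightly grouped above the WT values, with a log2 fold change of 0.35 ± 0.10 (interval 0.12 to 0.58; adjusted p = 0.120, limma). This difference depended on scaling. It was 0.16 with scaling outside the mitochondrial chromosome (adjusted p = 0.475, limma) and 0.24 with quantile normalization (adjusted p = 0.248, limma). Adamtsl4, which takes part in the assembly of fibrillin microfibrils, had 10.7, 10.5 and 11.6 FPKM in WT and 11, 8.50 and 12.0 FPKM in Mc4r KO hearts, overlapping, with a log2 fold change of -0.07 (interval -0.39 to 0.25). The 5 Adamts-like genes together had 29.9 ± 1.86 FPKM in WT and 35.1 ± 2.29 in Mc4r KO hearts, and the gelatinases 24.0 ± 1.75 and 18.7 ± 2.66 (n = 3 each). The stromelysins summed to 3.41 ± 0.207 FPKM in WT and 4.50 ± 1.53 in Mc4r KO hearts. Their groups barely lay apart, with 3.551 FPKM in WT replicate 3 and 3.557 in Mc4r KO replicate 1, while Mc4r KO replicate 2 had 6.26. For the sums of the Adamts-like genes, the gelatinases and the stromelysins the exact permutation p was 0.1. It was 0.2 for the other Mmps and for the other Adamts proteases, 0.6 for the collagenases, and 0.7 to 0.9 for the membrane-type Mmps, the procollagen N-propeptidases, the proteoglycanases and the Timps.

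The remaining 11 tested genes were Mmp16, Mmp19, Mmp27, Adamts4, Adamts8, Adamts12, Adamts14, Adamts15, Adamts17, Adamts19 and Adamtsl1. Their means ran from 0.103 to 0.947 FPKM and their log2 fold changes from -0.33 to 0.87, 7 higher and 4 lower, with adjusted p of 0.290 or more from limma. The highest was Adamts8, with 6, 11 and 18 reads in WT and 37, 33 and 14 reads in Mc4r KO libraries, where the groups overlapped.

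Position on the chromosome was not used to choose the genes. The Mmp cluster of chromosome 9, from 7272514 to 7699585 (427.1 kb), holds 9 of them, Mmp13, Mmp12, Mmp1b, Mmp3, Mmp10, Mmp8, Mmp27, Mmp20 and Mmp7. Only Mmp3 reached a mean of 1 FPKM there, 3 of the 9 passed the filter, and 4 had no read in any library. The promoters of Mmp3, Mmp13 and Mmp10 printed above hold the same 2 motifs, while their mean levels were 2.01, 0.340 and 0 FPKM. Adamts15 and Adamts8 also lie next to each other on chromosome 9, 20.1 kb apart, with log2 fold changes of 0.20 and 0.87.

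Genes that act on the proteases were examined from 4 further lists of 74 genes. None of the listed genes passed the test. Of 19 tested regulators of metalloproteinases, 10 were higher and 9 lower (median log2 fold change 0.0048). Furin, the convertase that opens Mmp11, Mmp14 and many Adamts proenzymes, had 7.26, 8.03 and 9.69 FPKM in WT and 13.98, 13.6 and 16.0 FPKM in Mc4r KO hearts, with a log2 fold change of 0.80 ± 0.13 and an adjusted p of 0.0535 from limma. It was called without WT replicate 3, by voom, among protein-coding genes and among genes of at least 1 FPKM. Pcsk6, another convertase, had a log2 fold change of -0.28 ± 0.10 (adjusted p = 0.169, limma).

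Of 14 tested proteases of related families, 8 were higher and 6 lower (median 0.08). Adam19, a membrane-bound disintegrin protease, had 3.49, 2.98 and 2.77 FPKM in WT and 1.84, 1.30 and 1.67 FPKM in Mc4r KO hearts (log2 fold change -0.91 ± 0.16, adjusted p = 0.0635, limma). Adam15 had 7.01, 7.64 and 7.59 FPKM in WT and 12.5, 10.7 and 9.80 FPKM in Mc4r KO hearts (0.56 ± 0.11, adjusted p = 0.0744, limma). Groups of both genes did not overlap.

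Of 9 tested substrates, proteoglycans and glycoproteins, 3 were higher and 6 lower (median log2 fold change -0.18). Decorin (Dcn), a collagen-binding proteoglycan, had 125, 124 and 109 FPKM in WT and 87.1, 77.1 and 83.0 FPKM in Mc4r KO hearts (-0.53 ± 0.09, adjusted p = 0.0579, limma). Elastin (Eln) had 1.90, 2.78 and 4.95 FPKM in WT and 9.26, 8.76 and 6.25 FPKM in Mc4r KO hearts (1.39 ± 0.33, adjusted p = 0.0966, limma). The study, with its other test, had Eln among its differentially expressed genes and chose it as a hub gene too. Of 20 tested genes of interleukin-6 signalling and AP-1, pathways known to act upstream of Timp1 and Mmp3, 5 were higher and 15 lower (median -0.18). Il6st, the shared receptor subunit, had a log2 fold change of -0.31 ± 0.08 (adjusted p = 0.105, limma) and Stat3 one of 0.31 ± 0.11 (adjusted p = 0.174, limma).

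Markers of cells that make these proteases were set beside them. Of 7 fibroblast markers, 1 was higher and 6 lower (median log2 fold change -0.33), and their summed level was 245 to 277 FPKM in WT and 188 to 219 in Mc4r KO libraries. Much of that gap was Dcn. Without it, a sum chosen after seeing the data, the other 6 markers gave 120, 128 and 168 FPKM in WT and 132, 115 and 105 FPKM in Mc4r KO libraries, which overlap. Within that sum Lum and Pdgfra were still lower without overlap, as were 12.4% of all genes (log2 fold changes -0.57 and -0.37, adjusted p = 0.107 and 0.120, limma). Col1a1 was higher (0.44), and Col3a1, Dpt and Tcf21 were lower, all 4 with overlap. Of 6 macrophage markers, 1 was higher and 5 lower (-0.29), with sums of 33.4 to 45.2 and 32.6 to 39.6 FPKM. Of 7 neutrophil markers 3 were tested and all 3 were lower (-1.25), with sums of 1.35 to 13.1 and 1.16 to 2.95 FPKM, and Ly6g had 0 reads. All 4 atrial markers were lower (-2.31), with sums of 28.6 to 747 and 6.29 to 136 FPKM, and 4 of 5 mesothelial markers (-0.53), with 4.92 to 26.7 and 5.33 to 7.76 FPKM.

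Of 4 smooth muscle markers 3 were higher (0.42), with sums of 42.5 to 73.2 and 39.0 to 112 FPKM. Of 5 endothelial markers 3 were higher (0.03), with sums of 138 to 172 and 149 to 177 FPKM. Of 6 cardiomyocyte markers 4 were higher (0.19), with sums of 5616 to 5859 and 5906 to 6499 FPKM. Adipocyte markers were near 0, with sums of 0.467 to 1.023 and 0.0283 to 0.328 FPKM and 0 reads for Lep. No marker passed the test. The log2 fold changes of the 2 markers with the lowest p in each list were 0.42 for Ryr2 and 0.30 for Actn2 (cardiomyocyte), -0.53 for Dcn and -0.57 for Lum (fibroblast, both also on the substrate list), 0.42 for Tie1 and -0.32 for Emcn (endothelium) and 0.99 for Cnn1 and 0.43 for Acta2 (smooth muscle). They were -0.37 for Csf1r and -0.42 for Cd68 (macrophage), -1.61 for S100a9 and -1.25 for S100a8 (neutrophil), -0.78 for Wt1 and -1.11 for Lrrn4 (mesothelium), -1.53 for Nppa and -3.11 for Sln (atrium) and -2.21 for Cfd, the one adipocyte marker tested. Adjusted p lay at 0.0579 or more (limma). The part of each cell type in the values of the Mmps, Adamts proteases and Timps was not tested.

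**Figure D4:**
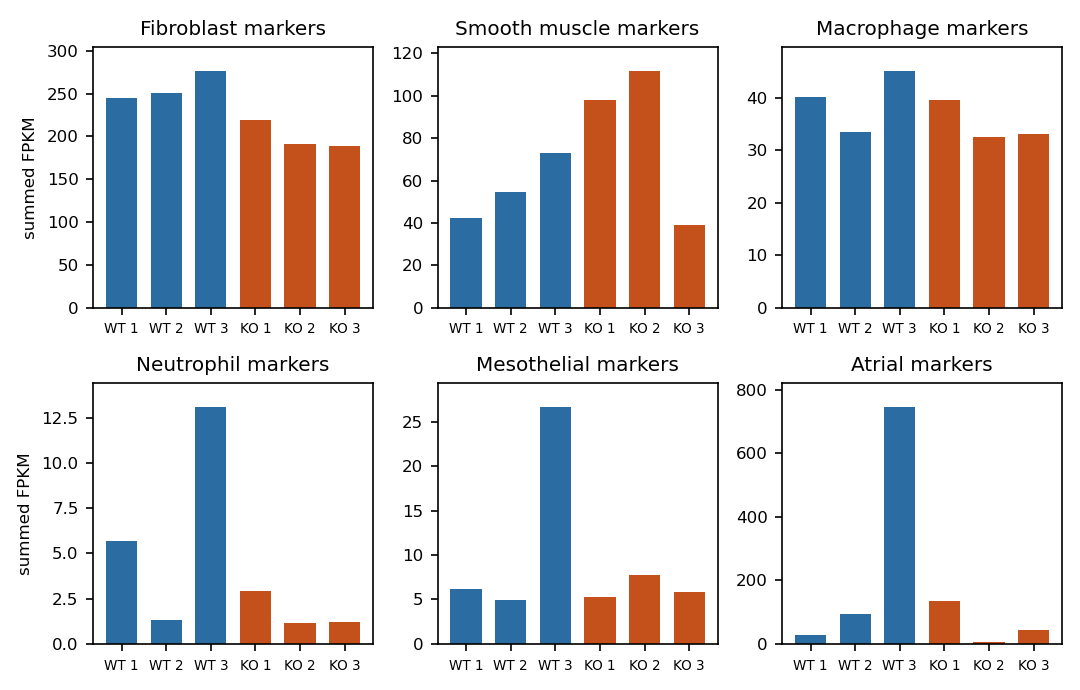
Summed FPKM of the markers of 6 cell types in each library, with WT in blue and Mc4r KO (KO) in orange. Fibroblast markers lie between 245 and 277 in WT and between 188 and 219 in Mc4r KO libraries, while the neutrophil (13.1), mesothelial (26.7) and atrial (747) sums are highest in WT replicate 3.

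The 13 genes with an unadjusted p under 0.05 kept the sign of their difference in each of the 16 alternative fits, or in all 15 that tested them for Mmp17 and Adamts6. Among the single libraries, WT replicate 3 moved Timp1 and Timp4 the most. Leaving it out moved the log2 fold change of Timp1 from 1.68 to 2.26 and that of Timp4 from 0.96 to 0.67. Other libraries moved them too, with 1.27 for Timp1 and 1.11 for Timp4 without WT replicate 1. Without WT replicate 3, log2 fold change and adjusted p (limma) were 1.38 and 0.0811 for Adamtsl2 and 0.73 and 0.0592 for Mmp28. They were -0.68 and 0.07855 for Adamtsl3, -0.63 and 0.0581 for Mmp23, and -0.28 and 0.08415 for Timp2. In that fit the adjusted p was 0.108 for Adamtsl5 and 0.158 for Adamts6, below that of all 6 libraries. It was above that for Mmp2 (0.2075), Mmp3 (0.231), Mmp17 (0.2215) and Adamts9 (0.197). For Mmp3 the library that mattered most was Mc4r KO replicate 2, without which the log2 fold change was 0.59.

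**Figure D5:**
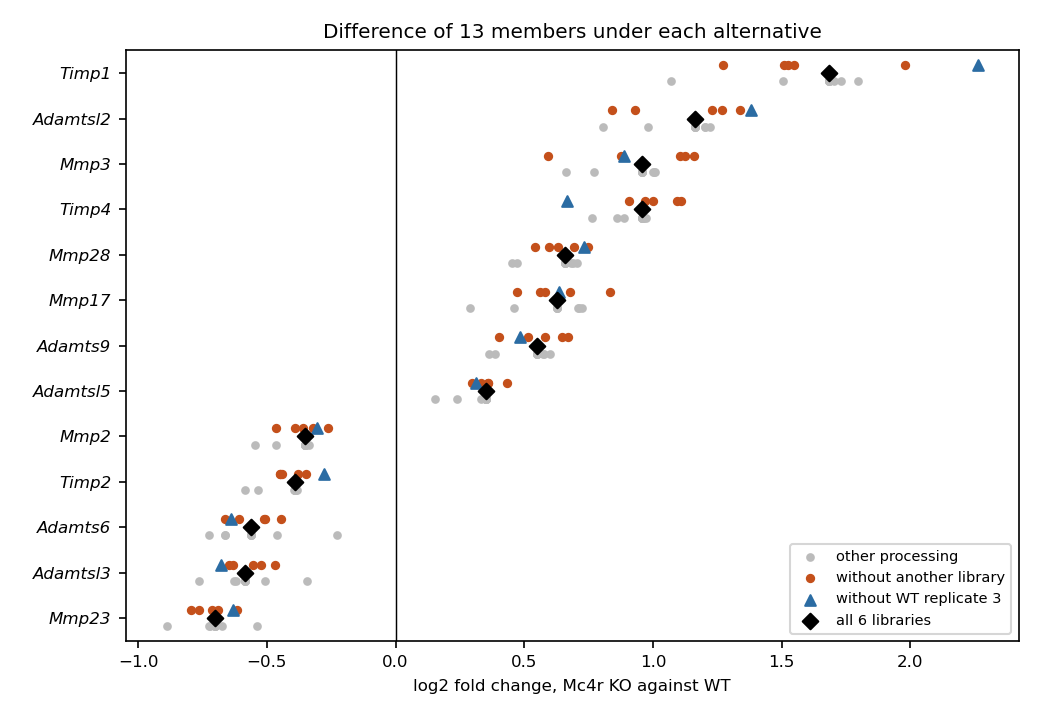
Log2 fold change of the 13 genes with an unadjusted p under 0.05, from all 6 libraries (black diamonds), without WT replicate 3 (blue triangles), without another library (orange) and with other processing (grey). No point crosses 0, and Timp1 spans the widest range, from 1.07 to 2.26.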

How the data were processed

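The authors filtered paired-end reads, aligned them with HISAT2 (version 2.0.5) to mm10 (per the submitters' processing notes), counted them on genes with featureCounts and deposited FPKM for each gene and library. Which annotation release served, and whether strand was used, is not given in the sources used here. Of the gene identifiers 99.9% were in GENCODE M21, and 49 of the 50 genes had the same position there. Multiplied by gene length, 100% of the values checked fell on whole reads (tolerance 0.05 reads), so reads could be recovered. FPKM is not a count, so limma (3.58.1, R 4.3.3) with a mean-variance trend was run on log2(FPKM + 0.1) with all 6 libraries and no covariate. Median-of-ratios scaling came before it. Its factor was 1 in each library, so it left the deposited values, already scaled between libraries, unchanged. Tests were two-sided with Benjamini-Hochberg adjustment over the 18035 genes averaging 0.1 FPKM or more. Calls required both an adjusted p under 0.05 and a log2 fold change beyond 0.75 in size. The fit was first tested on simulated data. Motifs were searched in the RefSeq promoter table. Figures used Python 3.11.15 and matplotlib 3.10.9.

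The 50 genes and all lists were chosen with earlier results of these data known. Genes given in every library were the 4 Timps, Mmp3, those called or with an unadjusted p under 0.05, and the 2 most abundant of each role. Of each further list, the 2 genes with the lowest p were named. Adamts8, Adamts15, A2m and Junb were added after their values were seen. Alternatives were pseudocounts of 1 and 0.01, no filter and a mean FPKM of at least 1, scaling outside the mitochondrial chromosome, quantile normalization, no trend, voom on recovered reads, the replicate number as a block, protein-coding genes only, a fold change above 1.5, and fits without each library, where the gene filter stayed that of all 6.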

Additional observations from a re-analysis of the deposited data

How the results depend on the processing

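With 3 hearts per group and few reads on weak genes, differences under the threshold cannot be told from none. The number of the 50 genes called was 0 in all fits except voom on recovered reads (2, Timp4 and Adamtsl2) and the fits without 1 library (0 to 1, Timp1 without WT replicate 3); with a fold change above 1.5 it was 0. Over all genes, 83 were called, against 44 with a pseudocount of 1, 22 without a filter, 147 at a mean FPKM of at least 1, 41 with scaling outside the mitochondrial chromosome, 49 with quantile normalization, 21 without trend, 317 with voom, 204 among protein-coding genes, 11 with the replicate block, 632 without WT replicate 3 and 0 to 7 without any other library. The number with an unadjusted p under 0.05 was 11 to 14 with other processing and 8 to 12 without 1 library, from 13. The number higher, 18 of 37, was 10 of 21 with a mean FPKM of at least 1. The median log2 fold change, -0.0043, was -0.16 with scaling outside the mitochondrial chromosome, where the median of all genes was -0.19, and -0.074 to 0.13 without 1 library. Listed genes of other pathways and markers called numbered 2 with a mean FPKM of at least 1 and 2 among protein-coding genes (Furin and Adam19 in both), 4 with voom (also Eln and A2m) and 0 to 4 without 1 library (Junb, Furin, Eln and Adam19 without WT replicate 3).

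Of 411 values of the 26 tested genes given in every library, 393 kept direction and side of the threshold, 3 passed it and 15 turned direction. Turned values were Adamts10 -0.0036 and Mmp15 -0.10 with scaling outside the mitochondrial chromosome, Mmp15 -0.014, Adamts2 0.017 and Mmp13 0.091 with quantile normalization, and Mmp13 0.010 with voom. Without 1 library Timp3 ranged from -0.11 to 0.063, Mmp13 from -0.21 to 0.23, Adamts2 from -0.16 to 0.19, Adamtsl4 from -0.17 to 0.076 and Timp1 from 1.27 to 2.26. The cause was not tested. Libraries share replicate numbers across groups, but same-numbered libraries did not deviate together (correlations of -0.06, -0.01 and -0.05). With the replicate number as a block 0 of the 50 genes were called, 18 were higher, the median was -0.0043 and 11 had an unadjusted p under 0.05.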
